A study of Mus musculus with 9 samples.

Results

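The collagens are the main structural proteins of the extracellular matrix, and the 42 genes described here are those whose symbol in the array's annotation reads Col, a number, a and a number. They are 42 of the 18193 genes that had a probe set assigned to a single gene, and 82 of the 45101 probe sets measured them. 27 of the 42 had more than 1 probe set, and each gene is given by its brightest one, with the others as a check. RefSeq lists 44 such symbols in the mouse, and the other two, Col28a1 and Col6a6, were not analysed here. The name rule alone decides which genes are members, but this family was chosen with earlier results of these data known.

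A collagen molecule is a triple helix of 3 alpha chains, each the product of 1 gene, and the chains must be hydroxylated, folded and, for the fibrillar types, trimmed and cross-linked before they bear load. In the artery, types I and III form the tensile fibrils of the media and adventitia, types IV, XV and XVIII belong to the basement membranes around smooth muscle cells and under the endothelium, and type VIII is made by smooth muscle cells of remodelling walls and plaques. Collagen made by smooth muscle cells forms the fibrous cap of an atherosclerotic plaque, and macrophage proteases break it down. Types II, IX, X and XI are the collagens of cartilage.

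RNA came from aortas, cut from sinus to arch, of female APOE-/- mice on a C57BL/6 background, a strain that lacks apolipoprotein E and has high plasma cholesterol. All mice, the controls included, had been fed a diet with 0.2% cholesterol and 10% coconut oil for 30 weeks, and the labels give their age as 8 weeks, which the design text places at purchase. Each mouse then had 1 tail vein injection of phosphate buffered saline (PBS), of the empty helper-dependent adenovirus HDAd-0 (a vector stripped of viral genes), or of HDAd-gE3, the same kind of vector carrying human apolipoprotein E3, and was killed 10 days later. Each array held RNA pooled from 3 aortas, and each group had 3 arrays: PBS replicates 1, 3 and 4, HDAd-0 replicates 3, 4 and 5, and HDAd-gE3 replicates 2, 3 and 4. The labels do not say how mice were assigned to pools, so the p-values measure the spread between these pools, which may be partly technical. HDAd-0 against PBS asks what the vector alone did, and HDAd-gE3 against HDAd-0 what the transgene added. Running numbers in the sample titles do not interleave between groups, so any order of handling and the group cannot be told apart.

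The deposited signals ran from 1.98 to 14.7 on the log2 scale, array medians from 6.67 to 6.77, and the lowest correlation between 2 arrays over all probe sets was 0.991. The aorta's defining smooth muscle markers Myh11, Acta2 and Tagln read 13.29 to 14.10 over the 9 arrays, and the mean of 6 such markers 12.8 to 13.1. Markers of other tissues also gave signal. Mean signal over 6 cardiac muscle markers was 12.03 to 12.8 in the HDAd-0 group against 13.1 to 13.2 in the PBS group. Mean signal over 4 liver markers was 8.69 to 10.5 against 7.67 to 8.06. In the HDAd-gE3 group the cardiac mean was 12.6 to 13.5 and the liver mean 8.14 to 9.17. Array values are levels of single probe sets, so a gene is compared with itself across arrays and no gene's level is set against another's. In pooled tissue, fewer cells of a type and less RNA per cell cannot be told apart.

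Of the 42 collagens, 1 passed an adjusted p of 0.05 (limma, Benjamini-Hochberg over all 18193 genes) in any of the 3 comparisons: Col23a1, a membrane-spanning collagen, was 1.54-fold higher after the empty vector than after PBS. Over all genes, 0.066% passed in that comparison, 0.0495% in that direction. Between HDAd-gE3 and HDAd-0 no collagen passed, against 0.0055% of all genes, and between HDAd-gE3 and PBS none passed, against 0.126% of all genes. At an unadjusted p under 0.05 the counts were 6 of 42 for HDAd-0 against PBS (4 higher, 2 lower), 5 for HDAd-gE3 against HDAd-0 (2 higher, 3 lower) and 5 for HDAd-gE3 against PBS (4 higher, 1 lower). The corresponding shares of all genes were 12.9% (8.5% higher, 4.39% lower), 12.9% (3.46% higher, 9.4% lower) and 13.2% (5.94% higher, 7.27% lower), so the collagen counts lay near the background. The 3 comparisons share arrays, each group serving in 2 of them.

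The groups did not overlap for 9 of the 42 collagens between HDAd-0 and PBS (6 higher and 3 lower in HDAd-0), for 4 between HDAd-gE3 and HDAd-0 (1 higher, 3 lower), and for 10 between HDAd-gE3 and PBS (6 higher, 4 lower). The shares over all genes were 18.8% (11.8% higher, 7% lower), 16.3% (4.25% higher, 12% lower) and 23.9% (10.8% higher, 13.2% lower). The median log2 difference of the 42 collagens was -0.04 for HDAd-0 against PBS, where that of all genes was 0.02. It was 0.01 against -0.04 for HDAd-gE3 against HDAd-0, and 0.02 against -0.02 for HDAd-gE3 against PBS. By group mean, each of the 6 possible orders of the 3 groups was held by 4 to 9 of the collagens.

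**Figure D1:**
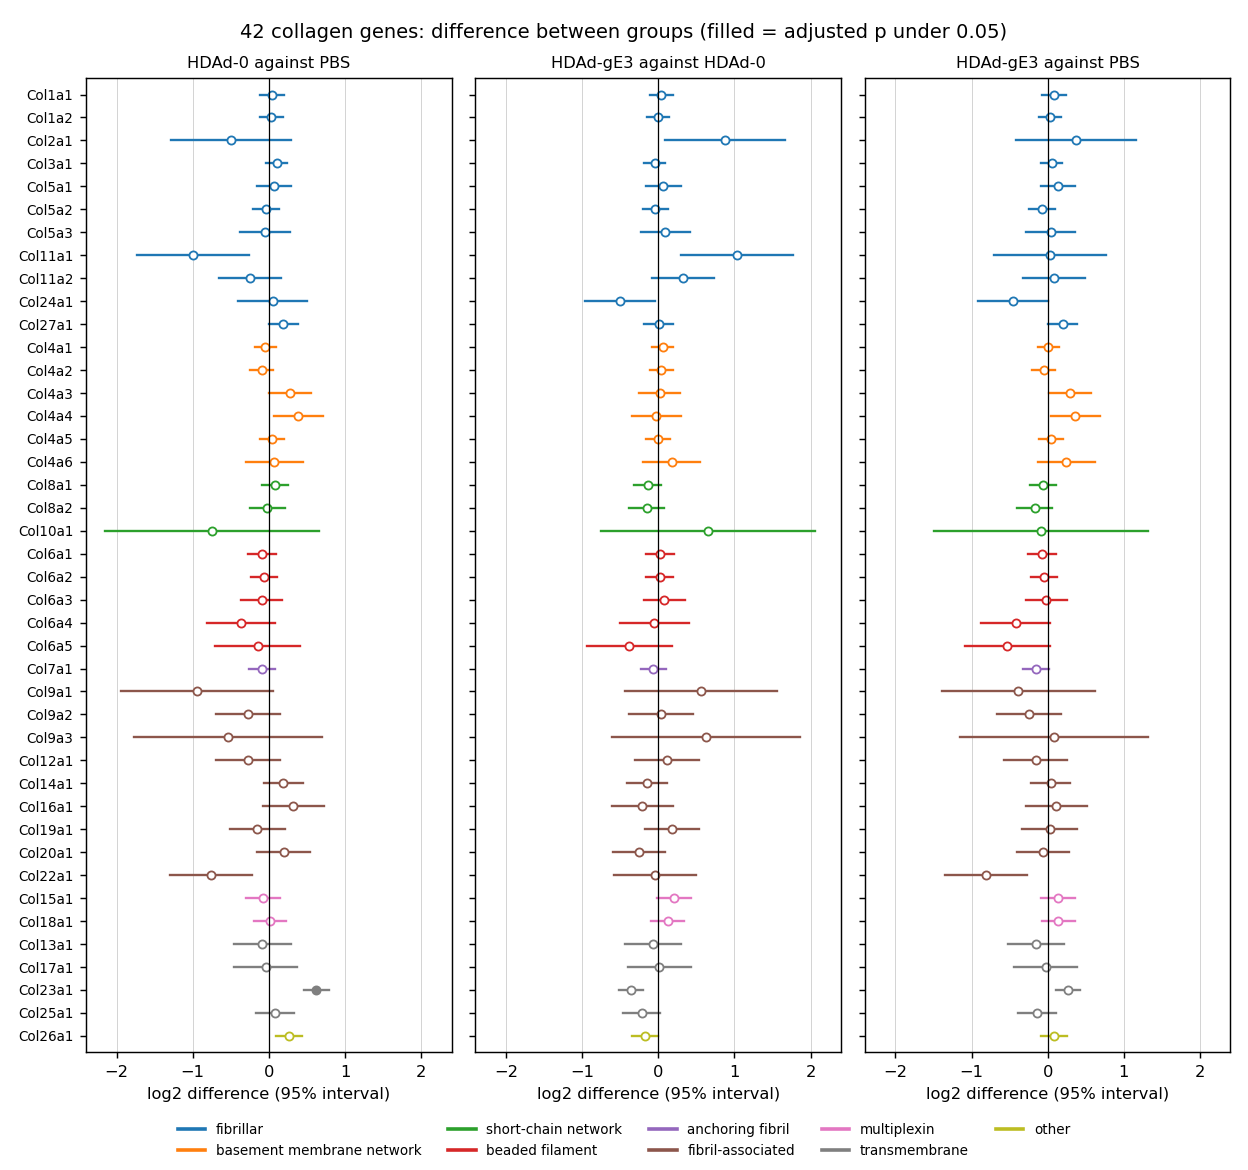
Log2 difference between groups for each of the 42 collagen genes in the 3 comparisons, with its 95% interval from limma over 9 arrays, coloured by structural class, and a filled point where the adjusted p was under 0.05. Col23a1 in HDAd-0 against PBS is the only filled point, at 0.62, and the intervals are narrow for types I, III, IV alpha 1 and 2 and VI alpha 1 to 3 and wide for types II, IX, X and XI.

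The plot of differences orders the collagens by structural class. Of the 11 fibrillar collagens none passed the adjusted threshold in any comparison. An unadjusted p under 0.05 was held by 2, 3 and 1 in the 3 comparisons in the order given above. Over all genes 12.9%, 12.9% and 13.2% held one. Of the 6 chains of the basement membrane network none passed, and the unadjusted counts were 1, 0 and 2. Of the 9 fibril-associated collagens, which decorate fibrils, none passed, and the unadjusted counts were 1, 0 and 1. None of the 3 short-chain network collagens, the 5 beaded filament chains of type VI, the 2 multiplexins or the anchoring fibril collagen Col7a1 had an unadjusted p under 0.05 in any comparison. The 4 transmembrane collagens held the single call.

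Col23a1 encodes the chain of type XXIII collagen, which spans the plasma membrane once and whose outer part can be shed. Its log2 signal was 7.62, 7.42 and 7.57 on the PBS arrays, 8.12, 8.23 and 8.14 on the HDAd-0 arrays, and 7.85, 7.82 and 7.74 on the HDAd-gE3 arrays. All HDAd-0 arrays lay above all HDAd-gE3 arrays, and these above all PBS arrays. The group means were 7.54 ± 0.104 in PBS, 8.16 ± 0.0597 in HDAd-0 and 7.80 ± 0.0578 in HDAd-gE3 (SD, n = 3 each). The HDAd-0 minus PBS difference was 0.62 (SE 0.0704, 95% interval 0.46 to 0.78, adjusted p = 0.0466 by limma). HDAd-gE3 was lower than HDAd-0 by a log2 difference of -0.36 (95% interval -0.52 to -0.20), which missed the threshold at an adjusted p of 0.191. It differed from PBS by 0.27 (95% interval 0.11 to 0.43, adjusted p = 0.205).

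The other Col23a1 probe sets had the same order of group means. On the next brightest the signals were 7.43, 7.33 and 7.41 in PBS, 8.08, 8.04 and 8.14 in HDAd-0 and 7.54, 7.34 and 7.75 in HDAd-gE3. On the dimmest they were 6.41, 5.98 and 6.16, then 6.86, 6.75 and 6.95, then 6.32, 6.34 and 6.49. HDAd-0 was separate from the other groups on both, while HDAd-gE3 and PBS overlapped on both. The HDAd-0 minus PBS differences on these probe sets were 0.70 and 0.67.

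**Figure D2:**
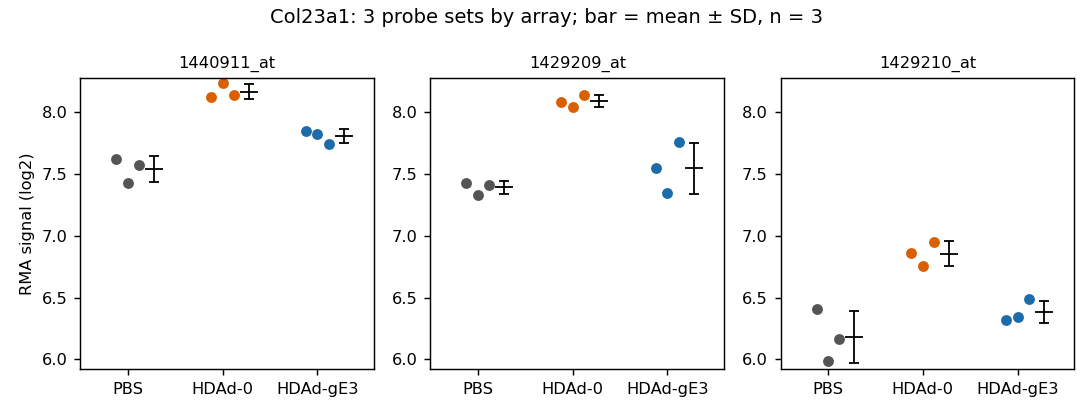
Log2 signal of Col23a1 on each array for its 3 probe sets, with points for arrays and a bar for the group mean ± SD, n = 3. On all 3 probe sets the HDAd-0 arrays lie above every other array, at 8.12 to 8.23 on the brightest one.

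The call stood close to the threshold. When single arrays were dropped in turn, it held only where the dropped array was HDAd-0 replicate 4. Each of the other 8 omissions gave an adjusted p of 0.0804 to 0.205, with differences of 0.57 to 0.67. With the 3 probe sets tested each on its own over the whole array, their adjusted p for HDAd-0 against PBS was 0.0634, 0.0787 and 0.118.

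The mean of the endothelial markers had the same order of groups as Col23a1. All 7 listed endothelial markers had a higher mean in HDAd-0 than in PBS, and 2 of them, Tie1 and Esam, passed the adjusted threshold. Over all genes 57.6% had a higher mean in HDAd-0, and 0.0495% passed in that direction. The markers were listed with earlier results of these data known. The mean of the 7 markers, each centred on its own mean over the 9 arrays, was -0.28 to -0.17 in PBS, 0.07 to 0.39 in HDAd-0 and -0.13 to 0.05 in HDAd-gE3. Within the HDAd-0 group, replicate 4 had the lowest marker mean. Its Col23a1 signal was the highest of the group on the brightest probe set and the lowest on the others. Between HDAd-gE3 and HDAd-0, 6 of the 7 markers had a lower mean and 1 a higher one, where 61.7% of all genes were lower. No endothelial marker was near the bottom of the scale, the dimmest, Cdh5, reading 8.69 to 9.34. The liver markers also moved this way (4 of 4 higher in HDAd-0, none passing), and the cardiac markers the other way (6 of 6 lower, where 42.4% of all genes were lower, none passing). Their part in the Col23a1 difference was not tested. The other transmembrane collagens, Col13a1, Col17a1 and Col25a1, differed by -0.08, -0.04 and 0.08 between HDAd-0 and PBS, with intervals that held 0.

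The mouse promoter of Col23a1 is shown because it belongs to the only collagen that passed. The window holds the 250 bases before the RefSeq start on build GRCm38.p6, at chr11:51289670-51289919 on the plus strand, with capitals marking motif matches.

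Col23a1: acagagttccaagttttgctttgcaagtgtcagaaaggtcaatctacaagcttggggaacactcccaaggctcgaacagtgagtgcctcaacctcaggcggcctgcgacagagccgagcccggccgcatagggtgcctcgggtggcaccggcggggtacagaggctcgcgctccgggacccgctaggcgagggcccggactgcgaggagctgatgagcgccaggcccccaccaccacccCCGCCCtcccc

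The motifs searched, on both strands, were the TATA box by its letters TATAAA, the box spelled CCAAT, and the GC box by its letters GGGCGG. Matches of different motifs may share bases at their ends and were counted separately, and a match describes letters only. The Col23a1 window held 1 GC box and neither of the others, 18 CpG dinucleotides and a GC content of 66.0%. Windows were found for 33 of the 42 collagens (36 windows, some genes having several starts). GGGCGG was in 21 of the 36 collagen windows (58.3%) and in 32.7% of 32851 windows of the same length over all genes. CCAAT was in 36.1% against 33.8%, and TATAAA in 13.9% against 12.4%. Median GC content was 59.0% in the collagen windows and 52.4% in all windows.

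The 13 collagens listed as the main chains of the arterial wall gave no adjusted and no unadjusted p under 0.05 in any comparison. Over all genes 12.9%, 12.9% and 13.2% had an unadjusted p under 0.05, and 0.066%, 0.0055% and 0.126% passed the adjusted threshold. With 13 genes, counts of none lie near these shares. These 13 chains, each read on its brightest probe set, were listed with earlier results of these data known. All 13 of their 95% intervals held 0 in each of the 3 comparisons, and 2 of the genes, Col1a2 and Col5a1, had other probe sets with an unadjusted p under 0.05, given with those genes. For HDAd-0 against PBS the differences ran from -0.09 to 0.10, and no interval reached beyond -0.36 (Col6a3) or 0.29 (Col5a1), which is 1.28-fold lower or 1.23-fold higher. For HDAd-gE3 against HDAd-0 they ran from -0.14 to 0.21, within bounds of -0.31 (Col8a1) and 0.43 (Col15a1), or 1.24-fold lower and 1.35-fold higher. For HDAd-gE3 against PBS they ran from -0.07 to 0.14, within bounds of -0.28 (Col6a3) and 0.36 (Col5a1), or 1.22-fold lower and 1.28-fold higher. These probe sets were also steady between replicates: their pooled within-group SD had a median of 0.0866, against 0.120 over all genes. On single probe sets near the top of the array's scale, a real difference can be compressed.

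Among the fibril-forming chains, Col1a1, the alpha 1 chain of type I collagen, read 13.44, 13.49 and 13.55 in PBS, 13.43, 13.63 and 13.55 in HDAd-0, and 13.53, 13.58 and 13.61 in HDAd-gE3. Its partner chain Col1a2 read 13.46, 13.53 and 13.59, then 13.51, 13.63 and 13.54, then 13.48, 13.59 and 13.60. On these probe sets the groups overlapped for both chains, and their HDAd-gE3 minus HDAd-0 differences were 0.04 and less than 0.01 in size. Of the other two Col1a2 probe sets, the brighter gave 0.08, 0.04 and 0.13 in the 3 comparisons. The dimmest disagreed, reading 6.25, 6.49 and 6.41 in PBS, 5.20, 6.30 and 5.84 in HDAd-0, and 6.55, 6.59 and 6.55 in HDAd-gE3. It gave -0.60 for HDAd-0 against PBS and 0.78 for HDAd-gE3 against HDAd-0, where the arrays did not overlap, and neither passed (adjusted p = 0.334 and 0.264 by limma over all probe sets). With the probe sets averaged, Col1a2 gave -0.16 and 0.27. Col3a1, which makes type III collagen alone, read 13.60, 13.52 and 13.60 in PBS, 13.63, 13.76 and 13.63 in HDAd-0 and 13.58, 13.64 and 13.66 in HDAd-gE3. Its HDAd-0 arrays all lay above its PBS arrays, by a mean of 0.10 (95% interval -0.04 to 0.24, adjusted p = 0.518 by limma).

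Col5a1 and Col5a2 encode type V collagen, which sits inside type I fibrils and limits their width. Col5a1 read 11.74, 11.63 and 11.70 in PBS, 11.58, 11.95 and 11.75 in HDAd-0, and 11.75, 11.79 and 11.94 in HDAd-gE3. Col5a2 read 13.17, 13.18 and 13.21, then 13.07, 13.30 and 13.08, then 13.06, 13.12 and 13.16. The 2 chains leaned opposite ways between HDAd-gE3 and PBS, 0.14 and -0.07, and both intervals held 0 although the arrays of these groups did not overlap. The other two Col5a1 probe sets gave 0.20 and 0.51 for HDAd-gE3 against HDAd-0, where the brightest gave 0.07, with adjusted p of 0.391 and 0.309 by limma. For HDAd-0 against PBS the brightest Col5a1 probe set gave 0.07, and the median of the gene's 3 probe sets was -0.11. Col5a3, the third chain of the type, differed by -0.05, 0.09 and 0.04 in the 3 comparisons.

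**Figure D3:**
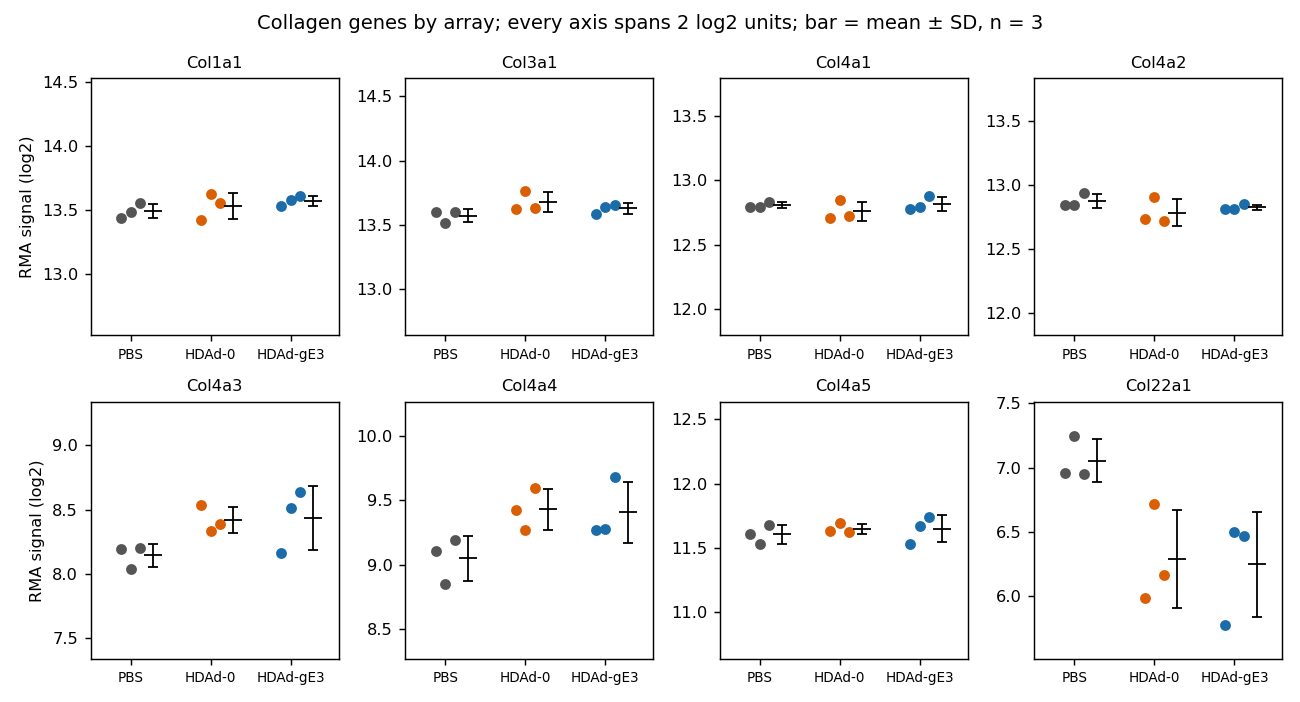
Log2 signal on each array for 8 collagen genes, with points for arrays and a bar for the group mean ± SD, n = 3; every vertical axis spans 2 log2 units. Col1a1, Col3a1, Col4a1, Col4a2 and Col4a5 vary little within or between groups, Col4a3 and Col4a4 have higher means in both vector groups than in PBS, and Col22a1 lower means.

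The promoters of Col1a2 and Col3a1 are given because their products pack into the same fibrils of the wall. The Col1a2 window lies at chr6:4505368-4505617 and the Col3a1 window at chr1:45311288-45311537, both on the plus strand of GRCm38.p6.

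Col1a2: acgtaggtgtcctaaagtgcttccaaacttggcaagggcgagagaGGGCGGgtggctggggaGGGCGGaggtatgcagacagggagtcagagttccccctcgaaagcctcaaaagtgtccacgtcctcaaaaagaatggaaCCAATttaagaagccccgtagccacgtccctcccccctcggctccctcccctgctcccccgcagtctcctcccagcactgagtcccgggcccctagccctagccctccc
Col3a1: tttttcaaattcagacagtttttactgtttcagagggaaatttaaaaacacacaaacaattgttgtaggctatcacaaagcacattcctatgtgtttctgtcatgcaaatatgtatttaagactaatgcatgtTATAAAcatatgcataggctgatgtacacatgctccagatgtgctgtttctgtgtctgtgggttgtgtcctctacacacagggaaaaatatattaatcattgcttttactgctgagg

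The windows differ in make-up. That of Col3a1 held 1 TATAAA, no GGGCGG, no CpG and 35.2% GC, and that of Col1a2 held 1 CCAAT, 2 GGGCGG, 11 CpG and 62.0% GC.

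The type VI chains form beaded filaments around cells. Col6a1 read 12.71, 12.79 and 12.87 in PBS, 12.69, 12.85 and 12.56 in HDAd-0 and 12.72, 12.70 and 12.73 in HDAd-gE3. Col6a2 read 12.36, 12.43 and 12.53, then 12.37, 12.49 and 12.26, then 12.34, 12.40 and 12.42. Col6a3 read 11.97, 11.98 and 12.04, then 11.79, 12.20 and 11.72, then 11.91, 12.04 and 11.98. For each of the 3 chains HDAd-0 replicate 4 was the highest of its group and replicate 5 the lowest, so that group held the widest spread. All 5 type VI chains had a lower mean in both vector groups than in PBS, by -0.37 to -0.07 after HDAd-0 and -0.53 to -0.02 after HDAd-gE3. Over all genes 42.4% had a lower mean after HDAd-0 and 54.6% after HDAd-gE3. None had an unadjusted p under 0.05, and the 2 furthest from 0, Col6a4 and Col6a5, are dim (group means of 4.60 to 5.31).

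Col8a1, a short-chain collagen, read 11.65, 11.67 and 11.73 in PBS, 11.64, 11.87 and 11.78 in HDAd-0 and 11.52, 11.67 and 11.68 in HDAd-gE3. The groups overlapped, and its partner Col8a2 differed by -0.02, -0.15 and -0.17. The multiplexins Col15a1 and Col18a1 carry sugar chains in the basement membrane zone, and the end of Col18a1 can be released as endostatin. Col15a1 read 11.11, 11.25 and 11.37, then 11.09, 11.30 and 11.11, then 11.29, 11.31 and 11.52. Col18a1 read 12.48, 12.50 and 12.52, then 12.48, 12.68 and 12.40, then 12.60, 12.52 and 12.80. The means of both were highest in HDAd-gE3, by 0.21 and 0.13 over HDAd-0 and 0.13 and 0.14 over PBS, and each interval held 0 (adjusted p of 0.405 and 0.588 against HDAd-0 by limma).

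Type IV collagen is the network of every basement membrane, built from 3 pairs of chains whose genes lie head to head. Col4a1 and Col4a2, the general pair, start 21 bases apart on chromosome 8. Col4a1 read 12.79, 12.79 and 12.83 in PBS, 12.71, 12.85 and 12.72 in HDAd-0 and 12.77, 12.80 and 12.88 in HDAd-gE3. Col4a2 read 12.85, 12.85 and 12.94, then 12.73, 12.90 and 12.72, then 12.81, 12.81 and 12.85. Both chains were lowest on HDAd-0 replicates 3 and 5, and the 95% intervals of both held 0 in each comparison. The pair on the X chromosome, Col4a5 and Col4a6, differed by 0.04 and 0.07 for HDAd-0 against PBS and by 0.04 and 0.25 for HDAd-gE3 against PBS.

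The remaining pair, Col4a3 and Col4a4, are chains of the kidney's filtration membrane, and their annotated spans share 114 bases on chromosome 1. Col4a3 read 8.19, 8.04 and 8.20 in PBS, 8.53, 8.34 and 8.39 in HDAd-0, and 8.16, 8.51 and 8.63 in HDAd-gE3. Col4a4 read 9.10, 8.85 and 9.19 in PBS, 9.43, 9.27 and 9.59 in HDAd-0, and 9.27, 9.28 and 9.68 in HDAd-gE3. For Col4a4 every array of both vector groups lay above every PBS array, and for Col4a3 HDAd-gE3 replicate 2 fell within the PBS range. The differences from PBS were 0.28 and 0.29 for Col4a3 and 0.38 and 0.36 for Col4a4, after HDAd-0 and HDAd-gE3 respectively. None passed the adjusted threshold (adjusted p = 0.388 and 0.354, then 0.316 and 0.331, by limma). The vector groups differed from each other by 0.02 and -0.02. The second Col4a3 probe set gave 0.13 and 0.48 against PBS, and the other two Col4a4 probe sets gave 0.29 and 0.18, and 0.02 and 0.06. The endothelial marker list was also higher in both vector groups than in PBS (7 of 7 genes in each, 2 and 0 passing). Over all genes 57.6% and 45.4% had a higher mean, and 0.066% and 0.126% passed in either direction. The part of the endothelial markers was not tested.

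The Col4a4 promoter is given as one of a neighbouring pair whose means moved together without passing the test. It lies at chr1:82586850-82587099 on the minus strand of GRCm38.p6 and held no match to the 3 motifs, 10 CpG and 62.8% GC.

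Col4a4: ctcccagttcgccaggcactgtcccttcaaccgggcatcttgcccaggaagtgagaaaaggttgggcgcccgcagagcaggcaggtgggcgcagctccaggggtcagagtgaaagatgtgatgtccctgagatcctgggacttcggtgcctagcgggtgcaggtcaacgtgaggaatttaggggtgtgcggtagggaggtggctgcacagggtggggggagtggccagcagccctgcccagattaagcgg

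The 7 cartilage collagens (Col2a1, Col9a1, Col9a2, Col9a3, Col10a1, Col11a1 and Col11a2) varied widely between arrays of 1 group. Their pooled within-group SD had a median of 0.500, against 0.120 over all genes and 0.202 over the 22 collagens that are neither cartilage nor main arterial chains. HDAd-0 replicate 4 was the lowest of the 9 arrays for 7 of the 7, and HDAd-gE3 replicate 3 was the highest for 5 and PBS replicate 4 for 2. The mean of the 7, each centred on its mean over the arrays, was 0.11, -0.05 and 0.56 in PBS, 0.08, -1.16 and -0.11 in HDAd-0, and -0.21, 0.73 and 0.05 in HDAd-gE3. This grouping is by textbook role, and it was set apart with values known, so it carries no test.

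**Figure D4:**
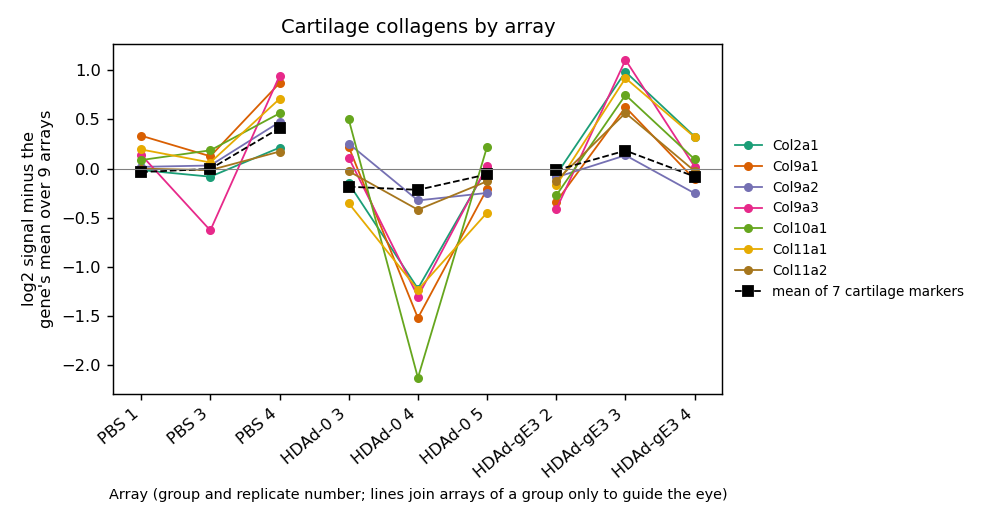
Log2 signal of 7 cartilage collagens on each array, minus each gene's mean over the 9 arrays, with the mean of 7 other cartilage markers as black squares; lines join the arrays of a group only to guide the eye. All 7 dip on HDAd-0 replicate 4, where their mean is -1.16, and the marker mean is -0.22 on that array.

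Col2a1, the chain of type II collagen, read 10.99, 10.93 and 11.22 in PBS, 10.86, 9.79 and 11.02 in HDAd-0, and 10.95, 11.99 and 11.33 in HDAd-gE3. Its group ranges overlapped in every comparison. Col11a1, which with type II makes the cartilage fibril, read 6.25, 6.12 and 6.76 in PBS, 5.70, 4.82 and 5.61 in HDAd-0, and 5.88, 6.97 and 6.37 in HDAd-gE3. Every HDAd-0 array lay below every array of the other groups. The Col11a1 difference was -0.999 (95% interval -1.73 to -0.27) for HDAd-0 against PBS and 1.03 (95% interval 0.30 to 1.77) for HDAd-gE3 against HDAd-0. Neither passed (adjusted p = 0.269 and 0.286 by limma). Its second probe set gave -0.63 and 0.77.

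Without HDAd-0 replicate 4 the Col11a1 differences were -0.72 and 0.76, and without HDAd-gE3 replicate 3 the second was 0.75. For Col2a1 the HDAd-gE3 minus HDAd-0 difference was 0.87 (95% interval 0.08 to 1.66, adjusted p = 0.361 by limma), and it shrank to 0.49 when HDAd-0 replicate 4 was dropped. The median difference of the 7 genes was -0.54 for HDAd-0 against PBS and 0.62 for HDAd-gE3 against HDAd-0, and leaving out that array brought these to -0.13 and 0.17. Col10a1, the collagen of hypertrophic cartilage, turned from -0.75 to 0.08 in the first comparison and from 0.66 to -0.17 in the second.

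Measures of the samples are set beside these genes. The mean of 7 other cartilage markers (Acan, Sox9, Comp, Matn1, Matn3, Cnmd and Hapln1) was -0.04, -0.0032 and 0.41 in PBS, -0.18, -0.22 and -0.06 in HDAd-0, and -0.02, 0.18 and -0.08 in HDAd-gE3, with HDAd-0 replicate 4 again lowest and PBS replicate 4 highest. The marker mean was nearly as low on HDAd-0 replicate 3, where the 7 collagens had a centred mean of 0.08. 6 of the 7 markers had a lower mean in HDAd-0 than in PBS, where 42.4% of all genes did, and none passed. Matn1 and Matn3 were dim on every array, at 3.42 to 5.20. The difference between 3′ and 5′ probe sets of the beta-actin and GAPDH control transcripts, a sign of how complete the RNA was, was 1.08 on HDAd-0 replicate 4, the highest of the 9, and 0.673 on HDAd-gE3 replicate 3, the lowest. It was 0.785, 0.896 and 0.917 on the PBS arrays, 0.957 and 0.760 on HDAd-0 replicates 3 and 5, and 0.722 and 0.809 on HDAd-gE3 replicates 2 and 4. These arrays did not keep that order throughout, PBS replicate 4 having a collagen mean of 0.56 and HDAd-gE3 replicate 2 one of -0.21. With the 3′ minus 5′ value as a covariate, the HDAd-gE3 minus HDAd-0 differences were 0.70 for Col11a1 and 0.29 for Col2a1. The part of cartilage content and of RNA quality in these values was not tested.

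The Col11a1 promoter is given because this gene had the largest difference among the 42 in the 2 comparisons with HDAd-0. It lies at chr3:114030290-114030539 on the plus strand of GRCm38.p6 and held 1 CCAAT, 2 GGGCGG and 7 CpG, with 62.4% GC.

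Col11a1: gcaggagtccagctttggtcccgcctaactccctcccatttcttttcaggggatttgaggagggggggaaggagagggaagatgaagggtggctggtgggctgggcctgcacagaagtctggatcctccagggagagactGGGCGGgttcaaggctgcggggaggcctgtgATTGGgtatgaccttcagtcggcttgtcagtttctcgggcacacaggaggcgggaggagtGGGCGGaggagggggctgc

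**Figure D5:**
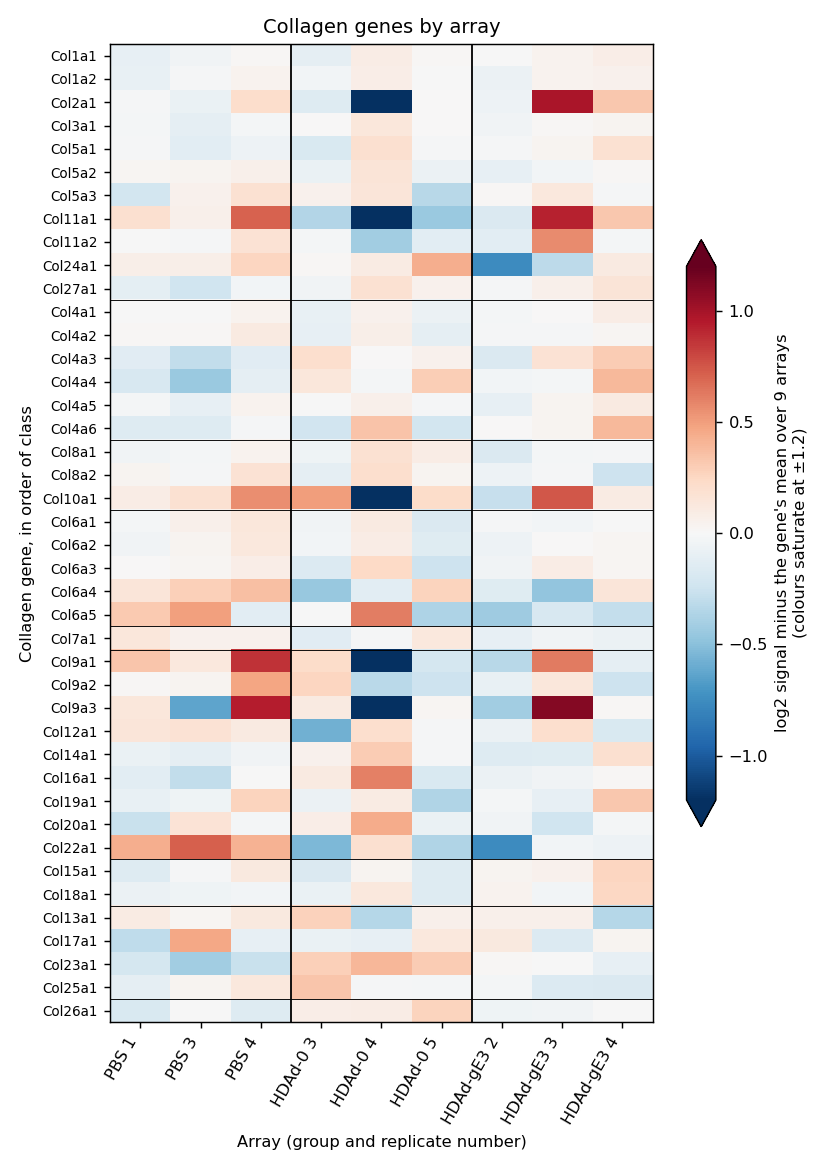
Log2 signal of all 42 collagens on the 9 arrays, minus each gene's mean over the arrays, in order of structural class with horizontal lines between classes. Colours saturate at ±1.2. On HDAd-0 replicate 4 Col2a1, Col9a1, Col9a3, Col10a1 and Col11a1 go beyond that, Col10a1 furthest, at -2.13. Strong colours sit in a few cartilage genes on HDAd-0 replicate 4, HDAd-gE3 replicate 3 and PBS replicate 4, and in Col22a1 and Col24a1.

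In the map of all 42 genes most of the strong colour follows single arrays. Col22a1, a fibril-associated collagen of muscle and tendon junctions, was an exception. It read 6.96, 7.25 and 6.95 in PBS, 5.99, 6.72 and 6.16 in HDAd-0, and 5.77, 6.50 and 6.47 in HDAd-gE3, so every vector array lay below every PBS array. The difference from PBS was -0.76 (95% interval -1.30 to -0.23) for HDAd-0 and -0.81 (95% interval -1.34 to -0.27) for HDAd-gE3, with adjusted p of 0.250 and 0.230 by limma. Its other probe sets disagreed, 1 giving -0.68 and -0.83 and the other 0.16 and 0.01. Markers of skeletal muscle were highest on HDAd-0 replicates 4 and 5, at 1.03 and 1.55 above their mean, and lowest on HDAd-gE3 replicate 4, at -1.12, and their part in the Col22a1 values was not tested.

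Col24a1, a minor fibrillar collagen, read 6.50, 6.50 and 6.69 in PBS, 6.44, 6.53 and 6.86 in HDAd-0, and 5.67, 6.11 and 6.53 in HDAd-gE3. Its HDAd-gE3 minus HDAd-0 difference was -0.50 (adjusted p = 0.362 by limma), with overlapping arrays. Col27a1, another minor fibrillar chain, had a mean 0.19 higher in HDAd-0 and 0.20 higher in HDAd-gE3 than in PBS, and its second probe set gave -0.10 and 0.16. Col26a1 read 3.18, 3.36 and 3.21, then 3.45, 3.46 and 3.64, then 3.32, 3.32 and 3.36, near the bottom of the array's scale, and its second probe set gave -0.10 where the first gave 0.26. It is 1 of 8 collagens with a mean signal under 6. Over the 27 genes with several probe sets, all probe sets had the same sign in 14 genes for HDAd-0 against PBS, 14 for HDAd-gE3 against HDAd-0 and 19 for HDAd-gE3 against PBS.

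Among the fibril-associated collagens outside cartilage, Col14a1, which binds the surface of type I fibrils, had a mean 0.19 higher in HDAd-0 than in PBS, its arrays not overlapping (adjusted p = 0.515 by limma). Col12a1, a like protein, differed by -0.27, 0.11 and -0.16, and Col16a1 by 0.32, -0.21 and 0.11. Col19a1 and Col20a1 differed by -0.15 and 0.19 for HDAd-0 against PBS. Col7a1, which anchors the epidermis, had an HDAd-gE3 minus PBS difference of -0.16 with no overlap of arrays, at signals of 5.81 to 6.04 in these groups. None of these reached an unadjusted p under 0.05.

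Genes that make, bind and break down collagen gave no call in any comparison. Over all genes 0.066%, 0.0055% and 0.126% were called, so no call is near the background for lists this short. Of 25 measured processing enzymes and chaperones, 2, 1 and 2 had an unadjusted p under 0.05 in the 3 comparisons. Over all genes 12.9%, 12.9% and 13.2% did. P3h2, a prolyl 3-hydroxylase that acts on basement membrane collagen, read 10.72, 10.70 and 10.84 in PBS, 10.16, 10.45 and 10.44 in HDAd-0 and 10.74, 10.96 and 11.07 in HDAd-gE3. Every HDAd-0 array lay below every other array. It differed by -0.40 for HDAd-0 against PBS and 0.57 for HDAd-gE3 against HDAd-0 (adjusted p = 0.210 and 0.191 by limma). The lysyl oxidases that cross-link fibrils gave 0.25 for Loxl4 in HDAd-0 against PBS and 0.20 for Loxl1 in HDAd-gE3 against PBS (adjusted p = 0.281 and 0.359). P4ha1, a subunit of prolyl 4-hydroxylase, gave 0.19 for HDAd-gE3 against HDAd-0, and P3h4 gave 0.30 for HDAd-gE3 against PBS (adjusted p = 0.447 and 0.228).

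Of 9 measured receptors, 1, 3 and 1 had an unadjusted p under 0.05, where 12.9%, 12.9% and 13.2% of all genes did. Itga1, the alpha 1 integrin that binds type IV collagen, differed by -0.25 and then 0.30 (adjusted p = 0.327 and 0.297). Lair1, an inhibitory collagen receptor of leukocytes, read 10.62, 10.51 and 10.91 in PBS, 10.94, 10.76 and 10.86 in HDAd-0 and 10.37, 10.48 and 10.46 in HDAd-gE3. The HDAd-gE3 arrays were the lowest of the 9, by -0.42 against HDAd-0 and -0.24 against PBS (adjusted p = 0.214 and 0.359). All 6 macrophage markers also had a lower mean in HDAd-gE3 than in HDAd-0, with no call, where 61.7% of all genes had a lower mean. Their centred mean was -0.05 to 0.05 in PBS, 0.07 to 0.13 in HDAd-0 and -0.13 to -0.10 in HDAd-gE3, and their part was not tested. Itga10 gave -0.31 for HDAd-gE3 against PBS (adjusted p = 0.567).

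Of 7 collagen-degrading proteases, 0, 1 and 3 had an unadjusted p under 0.05, where 12.9%, 12.9% and 13.2% of all genes did. Mmp13, the main collagenase of the mouse, read 10.17, 10.01 and 10.17 in PBS, 9.61, 10.31 and 9.20 in HDAd-0, and 9.07, 9.25 and 9.16 in HDAd-gE3. The HDAd-gE3 arrays lay below every PBS array, by a mean of -0.96 (SE 0.233, adjusted p = 0.170 by limma), and HDAd-0 spanned both. Mmp9, a gelatinase, read 8.69, 8.44 and 8.39, then 9.09, 9.37 and 7.94, then 9.06, 9.41 and 9.36, and was 0.77 higher in HDAd-gE3 than in PBS (adjusted p = 0.352). Mmp14, a membrane collagenase, gave 0.28 for HDAd-0 against PBS and Mmp8 0.23 for HDAd-gE3 against HDAd-0 (adjusted p = 0.397 and 0.538). The proteases thus held differences of both signs.

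Of 13 matrix proteins that bind collagen, 0, 1 and 1 had an unadjusted p under 0.05, where 12.9%, 12.9% and 13.2% of all genes did. Nid1, which links type IV collagen to laminin, gave 0.11 and then -0.15 (adjusted p = 0.411 and 0.333), and Comp, a cartilage and tendon glycoprotein, -0.41 for HDAd-gE3 against PBS (adjusted p = 0.365). Nid2 gave 0.10 and 0.20 for the vectors against PBS, and Matn2 -0.21 for HDAd-gE3 against HDAd-0, with adjusted p of 0.404 or more. Of 10 measured genes of TGF-beta signalling, which drives collagen synthesis, 1, 0 and 0 had an unadjusted p under 0.05, against the same shares of all genes. Tgfb2, a ligand, read 11.82, 11.90 and 12.09 in PBS, 11.65, 11.64 and 11.73 in HDAd-0 and 11.80, 11.82 and 11.93 in HDAd-gE3, a difference of -0.26 for HDAd-0 against PBS (adjusted p = 0.245), and 0.18 for HDAd-gE3 against HDAd-0 (adjusted p = 0.393). Smad7, an inhibitor of the pathway, gave -0.27 for HDAd-0 against PBS (adjusted p = 0.463), and the receptor Tgfbr1 -0.12 and the mediator Smad3 0.13 in the comparisons of HDAd-gE3 with HDAd-0 and PBS (adjusted p = 0.475 and 0.453). The median differences of these 5 lists lay between -0.10 and 0.04.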

How the data were processed

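The authors deposited log2 signals of 9 Affymetrix arrays, 1 per pooled sample, and the submitters' processing notes name RMA. That method subtracts background, forces the arrays to a common distribution and summarizes each probe set. The common distribution is set on probe signals before they are summarized, so a shift shared by most genes cannot be seen reliably. The summarized array medians still ran from 6.67 to 6.77. Array number limits the precision, at 6 residual degrees of freedom. Probe sets were named from the platform annotation: 34945 had 1 gene, 932 several (not used). The brightest single-gene probe set stood for each of 18193 genes.

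limma 3.58.1 (R 4.3.3; lmFit, eBayes, group means, all 9 arrays, two-sided) tested 3 comparisons, with Benjamini-Hochberg adjustment over all genes at 0.05; the procedure was tested on simulated data. Values named per array are those of called collagens, the 4 smallest p in each comparison and 13 fixed arterial chains; of each pathway list, called genes or else the 2 smallest p. Where the text singles out others, they were chosen after their values were seen. Members, classes and lists were chosen with earlier results of these data known. Groups share only replicate numbers 3 and 4, and same-numbered arrays deviated with correlations of -0.05 to 0.10, so numbers were not taken as pairs. Promoters came from RefSeq (GRCm38.p6). Alternatives covered normalization, dim genes, probe sets, weights, covariates and leaving out each array. Figures used matplotlib 3.10.9.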

Additional observations from a re-analysis of the deposited data

How the results depend on the processing

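19 alternatives were run, of which 1, the removal of genes with a mean under 6, gives no value for Col26a1. The count of collagens called between HDAd-0 and PBS, 1, was 0 with each probe set tested on its own, with the replicate number as a block (replicate block), with an intensity trend, with only the 2 groups compared and with the 3′ minus 5′ covariate. It ranged from 0 to 1 when single arrays were left out, staying 1 only without HDAd-0 replicate 4. Over all 19 alternatives the Col23a1 difference kept its sign, from 0.57 to 0.68, and its adjusted p ran from 0.0249 to 0.404. The block gave 0.68 with an adjusted p of 0.404, and over all genes its calls were 0, 0 and 0 against 12, 1 and 23. Only replicate numbers 3 and 4 recur, so the block fits the arrays with other numbers exactly. It leaves fewer than the 6 residual degrees of freedom of the main fit, which by itself makes calls harder. For HDAd-gE3 against PBS the collagen count was 1 with array weights, where Col23a1 had a difference of 0.29 and an adjusted p of 0.0388, and 804 genes were called in all. Median centring of the arrays moved the collagen median of HDAd-gE3 against HDAd-0 from 0.01 to -0.0501, and that of HDAd-gE3 against PBS from 0.02 to -0.02. Only the first of these shifts was larger than the spread between replicates, an SD of 0.0550. The other medians and counts of collagens moved by less than the spread between replicates or stayed within 1.5 times. Calls over all genes ranged from 0 to 35, 0 to 10 and 0 to 804 in the 3 comparisons. Of the named collagens' 63 differences, the 14 with an unadjusted p under 0.05 kept their sign under every alternative that gave them a value. Several alternatives, such as the intensity trend and the looser threshold, cannot change a difference. The setting with each probe set on its own was read by the gene's median. Single probe sets of Col22a1, Col26a1 and Col27a1 had opposite signs for HDAd-0 against PBS. Of the other 49 differences, 28 turned sign under at least 1 alternative. The causes of these changes were not tested. Signals near the array's floor limit the 8 collagens with a mean under 6.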
